A study of Saccharomyces cerevisiae with 4 samples.

Results

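Transcript levels of 10 genes of heme metabolism were followed in Saccharomyces cerevisiae exposed to CG-1521, a histone deacetylase inhibitor. They comprised the 8 genes of heme synthesis in step order (HEM1, HEM2, HEM3, HEM4, HEM12, HEM13, HEM14 and HEM15), the heme oxygenase gene HMX1 and the heme-responsive activator gene HAP1. The genes were taken by name from the array annotation, and all 10 were found among the 5449 yeast genes measured, each with 1 probeset. CG-1521 was given at 50 μM for 1 h to 2 cultures, and 2 control cultures received the vehicle for the same time, with 1 array per culture. All cultures were of the haploid laboratory strain BY4741, grew exponentially in YPD, a rich glucose medium, at 30 °C, and came from independent biological replicates per the labels. The values are log2 signals from Affymetrix arrays normalized together by RMA, which would hide a general rise or fall of the whole transcriptome. They describe whole cultures, in which a strong change in some cells and a weak change in all cells cannot be told apart.

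Heme is an iron-bearing ring that serves as cofactor of the cytochromes, catalases and sterol enzymes. Its synthesis starts in the mitochondrion, where Hem1 joins glycine to succinyl-CoA, proceeds in the cytosol from Hem2 to Hem13, and ends in the mitochondrial inner membrane with Hem14 and Hem15, which inserts the iron. In yeast heme also reports oxygen, because Hem13 needs oxygen and because heme activates Hap1, a transcription factor that turns on respiratory genes and ROX1, the repressor of hypoxic genes. Hmx1 degrades heme and releases its iron, and HMX1 belongs to the genes that the iron-sensing activator Aft1 switches on when iron is short.

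Every heme gene exceeded background on all 4 arrays. Background is the 95th percentile of an array's 1746 probesets for Schizosaccharomyces pombe (2.42 to 2.45 on the log2 scale). So did 5441 to 5443 of the 5449 genes on each array. LEU2, which is deleted in the strain, exceeded it on both CG-1521 arrays (2.77 and 3.09). Exceeding this background therefore says little about expression. Across genes the arrays correlated at 0.983 between the CG-1521 cultures and at 0.994 between the control cultures, so the treated arrays lay further apart. The strain's deleted genes LEU2, MET17 and URA3 had log2 signals between 1.19 and 3.09, whereas HIS3, which carries a partial deletion in this strain, had signals of 10.21 to 10.91. The a-cell genes MFA1, MFA2, STE2 and BAR1 lay between 10.81 and 12.18. Of the alpha-cell genes, MF(ALPHA)1 reached at most 3.79 and STE3 at most 5.17, but MF(ALPHA)2 lay between 9.20 and 9.59, against its cell type.

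With CG-1521, HMX1 rose 6.10-fold while HEM13, HEM3, HEM15 and HEM1 fell, by 3.53-fold, 2.51-fold, 1.74-fold and 1.44-fold. The 4 other synthesis genes, HEM2, HEM4, HEM12 and HEM14, and the activator gene HAP1 did not pass the test. Differences were tested with limma, a linear model that shares its estimate of spread across genes, and a gene passed at a Benjamini-Hochberg adjusted p under 0.05 over all 5449 genes. In all, 5 of the 10 heme genes passed, against 29.7% of all genes tested. Separately, 1 of 10 was higher, against 12.9% of all genes, and 4 of 10 were lower, against 16.8%. The median log2 fold change was -0.11 over the 10 genes, -0.40 over the 8 synthesis genes and -0.04 over all genes. The groups did not overlap in 8 of the 10, against 72.3% of all genes. In 3 of 10 both treated arrays were higher, against 31.4% of all genes, and in 5 of 10 both were lower, against 40.9%. The shares of higher genes and of genes without overlap were near those of all genes, and that of lower genes was above; with 10 genes no test of these shares was made.

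**Figure D1:**
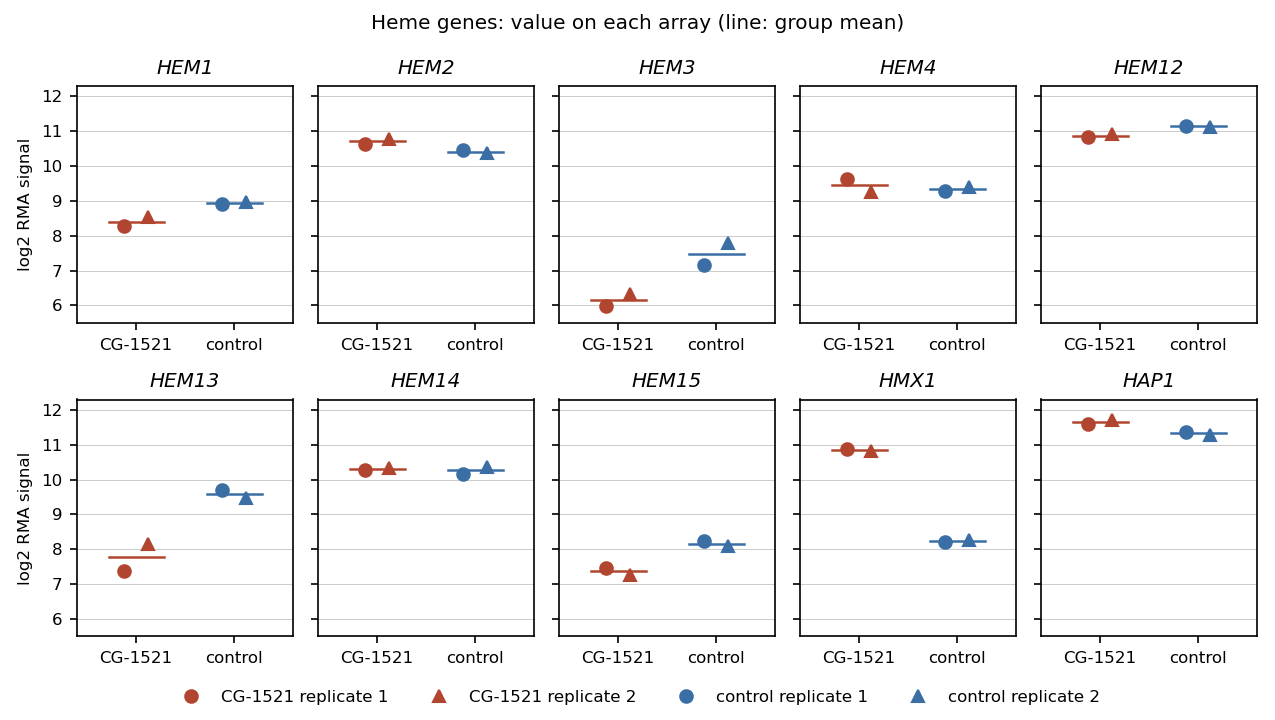
Log2 RMA signal of the 10 heme genes on each array, with CG-1521 cultures in red and control cultures in blue, circles for replicate 1, triangles for replicate 2 and lines for group means. HMX1 lies 2.57 higher on its lower CG-1521 array than on its higher control array, HEM13 shows the widest gap between CG-1521 arrays (0.78), and only HEM4 and HEM14 overlap between groups.

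HMX1, the gene for the enzyme that opens the heme ring, showed the largest change of the 10. Its log2 signal was 10.87 and 10.83 in the CG-1521 cultures, against 8.22 and 8.26 in the control cultures. The replicates thus differed by at most 0.04 within either group, while the groups lay 2.57 apart at their nearest. The log2 fold change was 2.61 (SE 0.10, 95% interval 2.36 to 2.86, adjusted p = 0.00676), the 13th largest rise of all genes. This call held without any single array, with an adjusted p of at most 0.0477, reached without control replicate 1.

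At the start of the pathway HEM1 fell by a small amount, HEM2 did not pass and HEM3 fell more. HEM1 encodes 5-aminolevulinate synthase, the first enzyme, and had signals of 8.27 and 8.54 with CG-1521, against 8.90 and 8.97 in control. Its log2 fold change was -0.53 (SE 0.13, 95% interval -0.88 to -0.19, adjusted p = 0.0426). HEM2, the gene for porphobilinogen synthase, had signals of 10.64 and 10.77 with CG-1521, against 10.47 and 10.37 in control. Both treated values were above both control values, but the difference of 0.29 (SE 0.11, 95% interval 0.01 to 0.58) had an adjusted p of 0.108. HEM3 encodes the deaminase that builds the linear tetrapyrrole. Its signals were 5.99 and 6.32 with CG-1521, against 7.17 and 7.80 in control, where the replicates differed by 0.64. The groups stayed 0.85 apart, and the log2 fold change was -1.33 (SE 0.25, 95% interval -1.99 to -0.67, adjusted p = 0.0240). The HEM1 and HEM3 calls ended when CG-1521 replicate 1 was left out, at log2 fold changes of -0.39 and -1.16. They also ended with control replicate 1 left out, at -0.56 and -1.65, and with control replicate 2 left out, at -0.50 and -1.01. With 1 control array left, a gene's own spread comes from the CG-1521 arrays alone, and the calls over all genes dropped as well. HEM1 also lost its call with the replicate number as a block (adjusted p = 0.0775).

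In the middle of the pathway HEM4 and HEM12 did not pass, and HEM13 fell most among the synthesis genes. HEM4, the gene for uroporphyrinogen III synthase, which closes the ring, had signals of 9.63 and 9.26 with CG-1521, against 9.30 and 9.40 in control. The control values lay between the treated ones, and the difference was 0.10 (95% interval -0.32 to 0.51, adjusted p = 0.664). HEM12, the gene for uroporphyrinogen decarboxylase, had signals of 10.84 and 10.91 with CG-1521, against 11.16 and 11.12 in control. The groups did not overlap, but the difference of -0.26 (SE 0.10, 95% interval -0.52 to -0.0038) had an adjusted p of 0.109. HEM13, the gene for the oxygen-dependent coproporphyrinogen oxidase, is known as a target of the hypoxic repressor Rox1. Its signals were 7.38 and 8.16 with CG-1521, against 9.70 and 9.48 in control. Both treated values lay at least 1.33 below both control values, with CG-1521 replicate 1 the lower of the pair. The log2 fold change was -1.82 (SE 0.28, 95% interval -2.56 to -1.09, adjusted p = 0.0165), the 9th largest fall of all genes. The log2 fold change was -1.43 without CG-1521 replicate 1 and -2.21 without CG-1521 replicate 2. With 1 CG-1521 array left, the gap between these arrays does not enter the test, so a call there cannot speak to it. With a control array left out the gene did not pass, at -1.72 without control replicate 1 and -1.93 without control replicate 2. The calls over all genes dropped in these fits as well.

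Of the final mitochondrial steps, HEM14 stayed near its control level in these arrays and HEM15 fell. HEM14 encodes protoporphyrinogen oxidase, which completes the ring's double bonds. Its signals were 10.27 and 10.35 with CG-1521, against 10.17 and 10.36 in control. The groups overlapped, and the difference of 0.04 had a 95% interval of -0.26 to 0.34. HEM15 encodes ferrochelatase, the enzyme that places iron in the ring, and had signals of 7.46 and 7.27 with CG-1521, against 8.23 and 8.10 in control. The replicates differed by 0.19 and 0.13 in the CG-1521 and control groups, and the groups lay 0.64 apart. The log2 fold change was -0.80 (SE 0.12, 95% interval -1.12 to -0.48, adjusted p = 0.0162). With a control array left out HEM15 did not pass either, at -0.73 without control replicate 1 and -0.87 without control replicate 2. In such a fit a gene's own spread comes from the CG-1521 arrays alone, and the calls over all genes dropped as well.

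HAP1, the gene for the heme-activated transcription factor, did not pass. In strains of the S288C lineage, to which BY4741 belongs, HAP1 carries a retrotransposon insertion in its coding region that weakens the protein, which limits these cultures as a model of heme response. Its signals were 11.59 and 11.72 with CG-1521, against 11.36 and 11.29 in control. The groups did not overlap, and the difference was 0.33 (SE 0.11, 95% interval 0.05 to 0.61, adjusted p = 0.0785). It passed with an intensity trend in the variance (adjusted p = 0.0299) and after a further quantile normalization over the S. cerevisiae probesets (adjusted p = 0.0495).

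**Figure D2:**
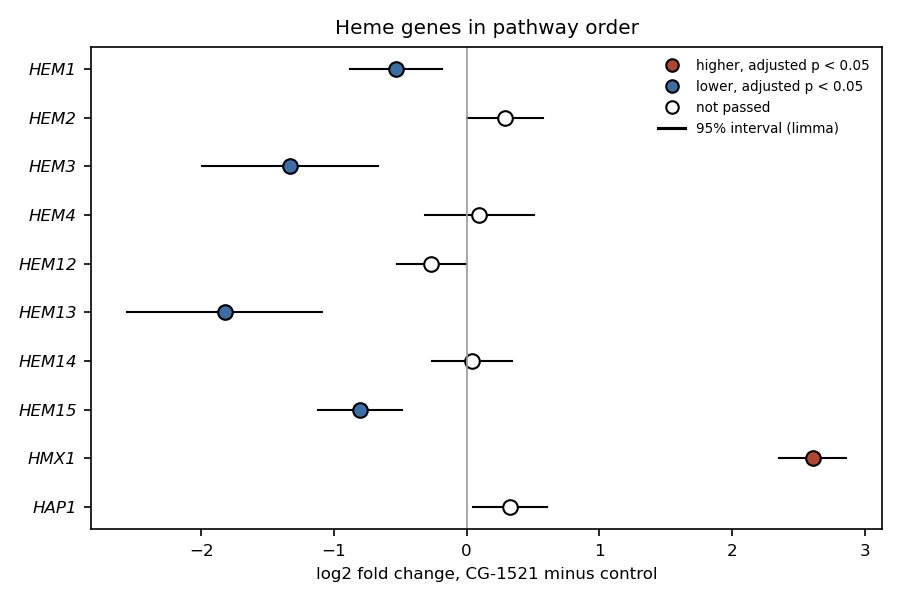
Log2 fold change (CG-1521 minus control) of the 10 heme genes, in pathway order from the top, with bars for limma's 95% intervals and filled points for an adjusted p under 0.05. HMX1 stands at 2.61, HEM13 at -1.82, HEM3 at -1.33, HEM15 at -0.80 and HEM1 at -0.53, and open points mark the 5 genes that did not pass.

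**Figure D3:**
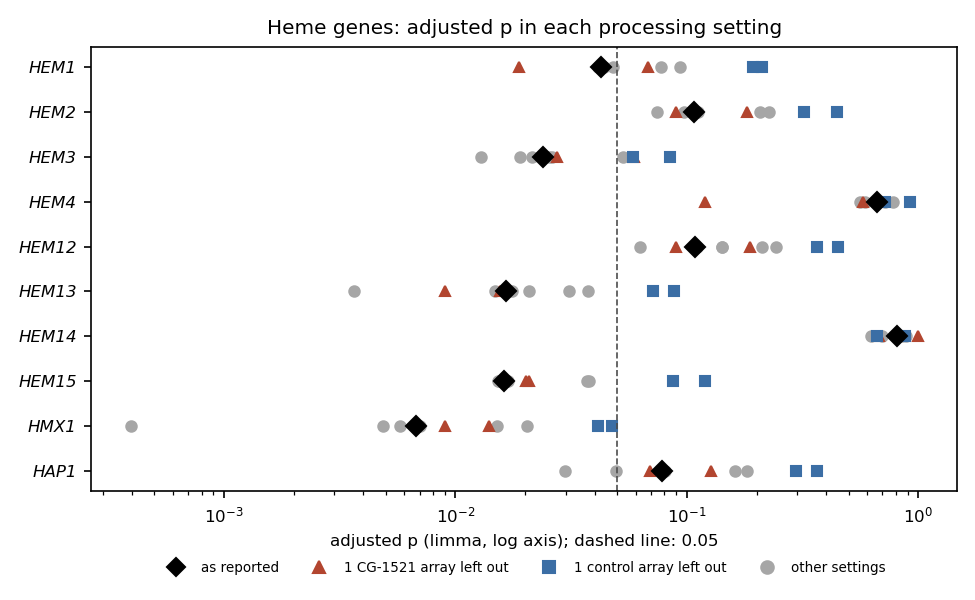
Adjusted p of each heme gene on a log axis in the reported fit (diamonds), with 1 CG-1521 array left out (triangles), with 1 control array left out (squares) and in the remaining settings (circles). HMX1 stays left of the dashed line at 0.05 in all 12 alternatives, and the 4 genes that fell lie right of it when either control array is left out.

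A further 72 genes that feed, use or regulate heme were drawn up in 7 lists. Their median log2 fold change was -0.21, against -0.04 over all genes. Of the 72 genes 9 were higher and 20 lower, beside 12.9% higher and 16.8% lower of all genes. With 1 control array left out, these counts dropped to 1 higher and 0 lower in limma, whichever control replicate was left out. At an unadjusted p under 0.05 they were then 7 higher and 17 lower without control replicate 1, and 10 and 16 without control replicate 2. Over all genes the counts dropped in the same way, to 58 higher and 18 lower and to 50 and 16, beside 703 and 917 with all arrays. The gene of the 72 that passed in all 12 settings was PUG1.

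Among 16 genes of precursor and iron supply, 5 rose and 4 fell (median log2 fold change 0.05), where 12.9% of all genes were higher and 16.8% lower. PUG1, a plasma membrane protein that exchanges protoporphyrin and heme, had signals of 8.33 and 8.21 with CG-1521, against 6.71 and 6.37 in control. It rose 3.32-fold (log2 fold change 1.73, SE 0.15, adjusted p = 0.00768). The mitochondrial iron carrier gene MRS4 had signals of 9.50 and 9.61 with CG-1521, against 8.29 and 8.40 in control, a rise of 1.21 on the log2 scale (SE 0.11). YFH1, the gene for frataxin, an iron-binding protein of the mitochondrial matrix, moved the other way. It had signals of 9.83 and 9.46 with CG-1521, against 10.55 and 10.74 in control, and fell by 1.00 (SE 0.17, adjusted p = 0.0192). Enzymes around succinyl-CoA, a substrate of Hem1, also parted. The succinyl-CoA ligase genes LSC1 and LSC2 rose by 0.50 and 0.88, and KGD1 and KGD2 of alpha-ketoglutarate dehydrogenase fell by 0.55 and 0.39. LPD1, the third subunit gene of that complex, stood at 0.10 with overlapping groups and did not pass. GLY1, the threonine aldolase that yields glycine, fell by 0.84 (SE 0.21), or by 0.56 without CG-1521 replicate 1, and the mitochondrial carrier gene MTM1 rose by 0.43 (SE 0.11).

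Of 9 genes for heme A synthesis, heme attachment and siroheme, 2 fell and 0 rose in limma, with a median of -0.42. Among all genes 16.8% were lower and 12.9% higher. At an unadjusted p under 0.05, 3 of the 9 fell and 1 rose, beside 1383 lower and 1054 higher of all 5449 genes. MET8 makes siroheme, the cofactor of sulfite reductase, from a branch off uroporphyrinogen. Its signals were 7.93 and 7.77 with CG-1521, against 8.86 and 8.98 in control, and it fell by 1.07 (SE 0.12, adjusted p = 0.00937). COX15, which acts in heme A synthesis for cytochrome oxidase, fell by 0.54 (SE 0.14, adjusted p = 0.0450). The heme lyase genes CYC3 and CYT2, which attach heme to the c-type cytochromes, stood at 0.42 and -0.73 and did not pass (adjusted p = 0.0691 and 0.0613). Both passed with the intensity trend (adjusted p = 0.0290 and 0.0413). CYC3 also passed without CG-1521 replicate 2 (0.53), and CYT2 did after the further quantile normalization (adjusted p = 0.0425) and with CG-1521 replicate 1 left out (adjusted p = 0.0204), while it was at -0.45 without CG-1521 replicate 2. YAH1 and CYC2 stood at -0.43 and 0.21 and did not pass. YAH1 was at -0.65 without CG-1521 replicate 1 and at -0.20 without CG-1521 replicate 2.

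Of 19 genes for proteins that bind heme or siroheme, 7 fell and 2 rose (median log2 fold change -0.43, against -0.04 over all genes, of which 16.8% were lower and 12.9% higher). The respiratory members included the largest fall, that of the cytochrome c peroxidase gene CCP1. Its signals were 8.01 and 6.57 with CG-1521, against 9.36 and 9.43 in control, so the CG-1521 arrays differed by 1.44 (log2 fold change -2.11, SE 0.48, adjusted p = 0.0357). The change was -1.39 without CG-1521 replicate 2 and -2.83 without CG-1521 replicate 1. The cytochrome c1 gene CYT1 fell by 1.78 (SE 0.26). Heme proteins of sterol synthesis were among those that fell. The lanosterol demethylase gene ERG11 had signals of 10.91 and 11.06 with CG-1521, against 12.37 and 12.23 in control, a fall of 1.32 (SE 0.12, adjusted p = 0.00768). ERG5, a second cytochrome P450 of the pathway, fell by 0.91, DAP1, the heme-binding partner of Erg11, by 0.39, and CYB5, cytochrome b5, by 1.41. The flavohemoglobin gene YHB1, which detoxifies nitric oxide, fell by 1.21 (SE 0.21). The members that rose were BNA2, a dioxygenase of NAD synthesis (2.07, SE 0.37), and OLE1, the fatty acid desaturase with a cytochrome b5 domain (0.45, SE 0.10). BNA2 had signals of 7.90 and 7.13 with CG-1521, against 5.07 and 5.82 in control. Its replicates differed by 0.78 and 0.76 in these groups. The lower control signal was within the range of the alpha-cell gene STE3 (4.63 to 5.17).

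Among 13 regulators of heme and oxygen response, 2 fell and 1 rose (median log2 fold change -0.07), shares near or below the 16.8% lower and 12.9% higher of all genes. ROX1, the repressor of HEM13 and other hypoxic genes, had signals of 8.77 and 8.71 with CG-1521, against 8.89 and 8.60 in control. The groups overlapped, and the 95% interval of the difference ran from -0.36 to 0.35. MOT3, a second hypoxic repressor, stood at 0.05 (95% interval -0.46 to 0.56), and the sterol regulator gene UPC2 at -0.04 (95% interval -0.39 to 0.32). HAP4, the activating subunit of the CCAAT-binding complex that drives respiratory genes, had signals of 8.48 and 9.03 with CG-1521, against 9.64 and 9.86 in control. It fell by 0.99 (SE 0.22, adjusted p = 0.0325). The corepressor gene CYC8 fell by 0.43 (SE 0.10), and MGA2, an activator of OLE1, rose by 0.61 (SE 0.10). HAP3, ECM22 and SPT23 stood at -0.23, -0.43 and -0.35 and did not pass. ECM22 passed with the intensity trend (adjusted p = 0.0489), and SPT23 passed after the further quantile normalization (adjusted p = 0.0484). ECM22 stood at -0.33 without CG-1521 replicate 1 and at -0.53 without CG-1521 replicate 2.

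**Figure D4:**
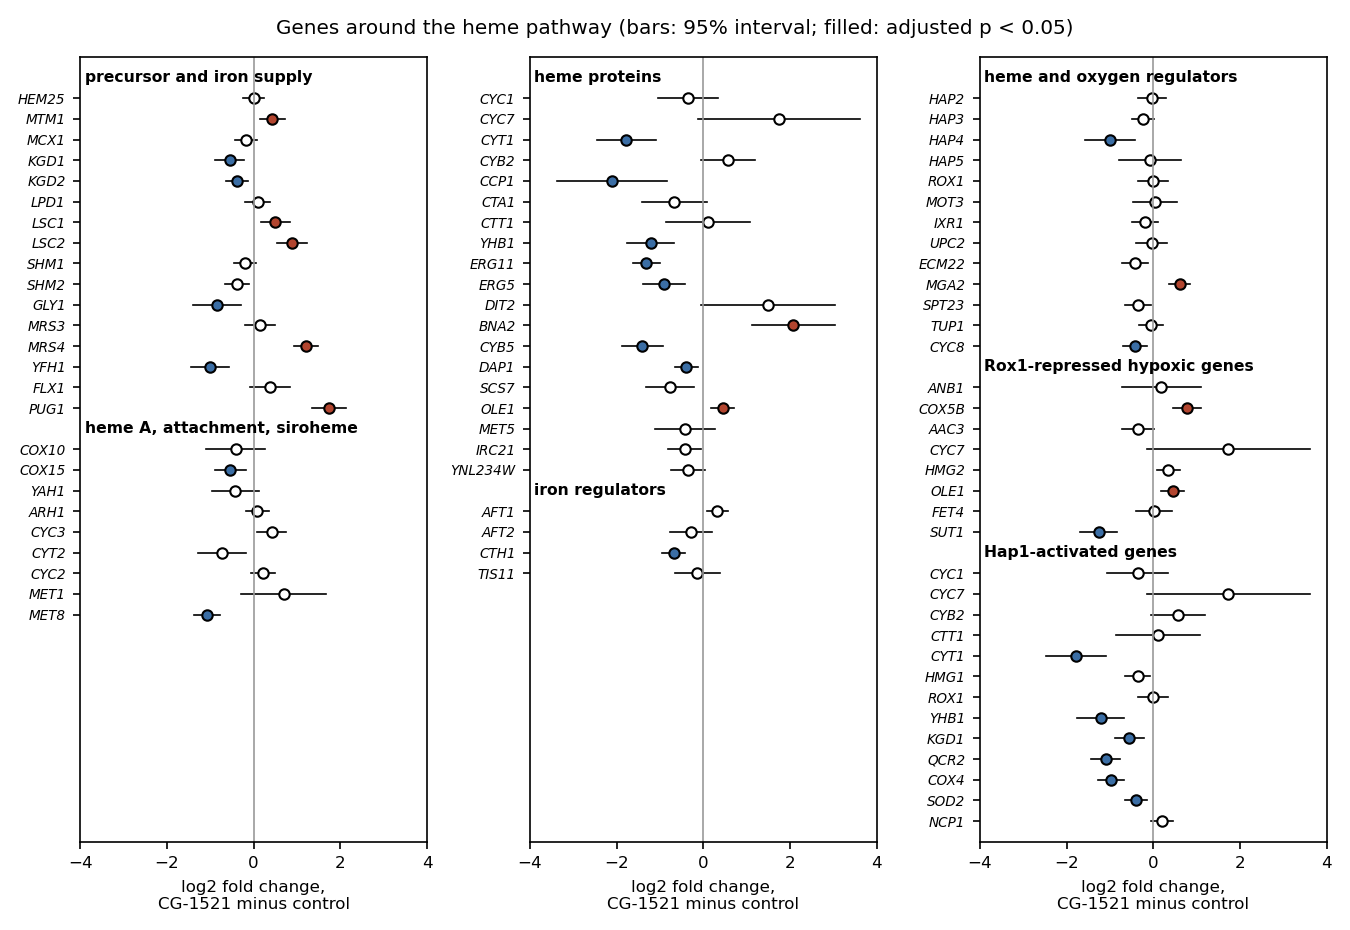
Log2 fold change (CG-1521 minus control) with limma's 95% intervals for 72 genes in 7 lists around the heme pathway, where 9 genes stand in more than 1 list and red and blue points mark genes higher and lower at an adjusted p under 0.05. PUG1 (1.73) and BNA2 (2.07) stand far right, and CCP1 (-2.11) and CYT1 (-1.78) far left.

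Known targets of these regulators were read as a further description. Of 13 genes listed as activated by Hap1, 6 fell and 0 rose in limma, with a median log2 fold change of -0.36. Among all genes 16.8% were lower and 12.9% higher. At an unadjusted p under 0.05, 7 of the 13 fell and 0 rose, beside 1383 lower and 1054 higher of all 5449 genes. The 6 that fell were CYT1, YHB1, KGD1, QCR2, COX4 and SOD2. Of the 7 that did not pass, CYC7, CYB2, NCP1 and CTT1 stood above 0, at 1.74, 0.57, 0.20 and 0.11. CYC1, HMG1 and ROX1 stood at -0.36, -0.36 and -0.0057. The respiratory genes QCR2 and COX4 stood at -1.10 (SE 0.12) and -0.98 (SE 0.11), and the superoxide dismutase gene SOD2 at -0.40 (SE 0.10). This list is not specific to Hap1, since the CCAAT-binding complex also drives respiratory genes. Hap1 itself is weakened in this lineage, as given above. The cause of these falls was not tested. Of 8 hypoxic genes other than HEM13 listed as repressed by Rox1, 2 rose and 1 fell (median log2 fold change 0.27), beside the same 12.9% and 16.8%. COX5B, the hypoxic isoform of a cytochrome oxidase subunit, had signals of 10.80 and 10.89 with CG-1521, against 9.94 and 10.17 in control, and rose by 0.79 (SE 0.12). OLE1 rose as given above, and SUT1, a regulator of sterol uptake, fell by 1.26 (SE 0.17). CYC7, the hypoxic isoform of cytochrome c, had signals of 8.88 and 6.98 with CG-1521, against 5.67 and 6.72 in control. Its difference of 1.74 did not pass (adjusted p = 0.130), and the arrays of both groups lay far apart. With CG-1521 replicate 2 left out the difference was 2.68, and with CG-1521 replicate 1 left out it was 0.79. AAC3 and HMG2 stood at -0.35 and 0.35 and did not pass. HMG2 passed with the intensity trend, the centring of arrays and the further quantile normalization (adjusted p = 0.0304, 0.0486 and 0.0449).

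Among 4 iron regulators beside HMX1, 1 fell and 0 rose in limma, against 16.8% lower and 12.9% higher of all genes. At an unadjusted p under 0.05, 1 of the 4 fell and 1 rose, beside 1383 lower and 1054 higher of all 5449 genes. AFT1, the activator of HMX1, had signals of 10.95 and 10.94 with CG-1521, against 10.63 and 10.62 in control, a difference of 0.32 (SE 0.09, adjusted p = 0.0612), which passed with the intensity trend (adjusted p = 0.0344). CTH1, an mRNA-binding protein, fell by 0.68 (SE 0.10), and AFT2 and TIS11 stood at -0.28 and -0.14 and did not pass. With CG-1521 replicate 2 left out AFT2 and TIS11 were at -0.51 and -0.41, and with CG-1521 replicate 1 left out at -0.05 and 0.13.

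The patterns most like those of HMX1 and HEM13 were sought as the smallest Euclidean distance between log2 values centred on each gene's own mean over the 4 arrays. For HMX1 these were GLK1 (distance 0.23), RGI1 (0.32) and FIT2 (0.34), and for HEM13 they were RLI1 (0.29), YBR238C (0.34) and RRP8 (0.39). GLK1 had signals of 11.72 and 11.51 with CG-1521, against 8.89 and 9.19 in control. RLI1 had signals of 7.72 and 8.38 with CG-1521, against 9.67 and 9.80 in control. With 4 arrays such a likeness mostly restates the size of the change and the gap between the CG-1521 arrays.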

How the data were processed

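The deposited values are log2 signals per probeset, made with Affymetrix Expression Console and RMA per the submitters' processing notes; versions, settings and build are not given in the sources used here. Gene identifiers tied 5498 of 10928 probesets to the R64 annotation of S. cerevisiae. Where a gene had several probesets (47 genes), the brightest on average was used, leaving 5449 genes. The test was limma's moderated linear model (limma 3.58.1, R 4.3.3) without a replicate block, two-sided, adjusted by Benjamini-Hochberg over all genes. Its prior added 2.69 degrees of freedom to 2 residual ones; the number of arrays limits the precision. The procedure was run on simulated arrays with the same spread in both groups and far fewer changed genes than passed here. In these data the median standard deviation between replicates was 0.12 with CG-1521 and 0.075 in control. The simulation therefore does not cover such conditions. Across genes the deviations of same-numbered arrays from their group means were weakly and inversely related (correlation -0.26), and the labels state no pairing. Alternatives were each array left out, the replicate block, other priors, normalizations, filters and probeset rules. The heme genes, the lists and the rule for named genes (all heme genes, called and lowest-p list members, key regulators, nearest patterns) were chosen with earlier results of these data known. Neighbouring genes were named after their values were seen.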

Additional observations from a re-analysis of the deposited data

How the results depend on the processing

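Of the heme genes, HMX1 kept its direction and call in all 12 alternatives, with log2 fold changes of 2.59 to 2.63. With 1 array left out the changes ranged from -0.67 to -0.39 for HEM1, -1.65 to -1.01 for HEM3, -2.21 to -1.43 for HEM13, -0.90 to -0.71 for HEM15, -0.090 to 0.28 for HEM4 and -0.052 to 0.13 for HEM14, so only the last 2, which never passed, changed sign. The number of lower heme genes then ranged from 0 to 4 and that of higher ones stayed at 1; over all genes 50 to 1001 were higher and 16 to 1133 lower, and over the 72 surrounding genes 1 to 13 and 0 to 22. Fitting all probesets together left 2 heme genes lower, ending the calls of HEM1 (-0.53, adjusted p = 0.0930) and HEM3 (-1.33, adjusted p = 0.0532), with 334 higher and 444 lower over all genes and 10 lower among the surrounding ones. The replicate block ended the call of HEM1 (-0.53, adjusted p = 0.0775) and of no other heme gene, with 369 higher and 450 lower over all genes and 5 higher among the surrounding ones. A crossed pairing, added after the data were seen, gave 842 higher and 978 lower. HAP1 passed with the intensity trend (0.33, adjusted p = 0.0299) and after quantile normalization over S. cerevisiae probesets (0.38, adjusted p = 0.0495), giving 2 higher heme genes in each. ROX1, at -0.0057, was 0.012 with arrays centred on their medians. With 1 array left out ROX1 ranged from -0.15 to 0.14 and MOT3 from -0.17 to 0.27. In the same fits UPC2 ranged from -0.16 to 0.091 and TIS11 from -0.41 to 0.13. With a group left at 1 array, that array is assumed to vary like the other group. The cause of these changes was not tested. Promoter motifs were not searched, since promoter sequences were not used here.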

Other observations

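The genes next to the heme genes on the chromosomes, taken from the R64 gene order after values were seen, moved in several ways. Of 20 adjacent genes 15 had a probeset, of which 4 were higher, 1 was lower and 10 did not pass in limma, beside 12.9% higher and 16.8% lower among all genes. Among the 6 measured neighbours that start from a shared upstream region and run away from a heme gene, 3 were higher, in a set small and chosen with its values known. COX20, a cytochrome oxidase assembly gene upstream of HEM1, had signals of 9.53 and 9.45 with CG-1521, against 8.32 and 8.65 in control, and rose by 1.00 (SE 0.15, adjusted p = 0.0150), while HEM1 fell by 0.53. YGL039W, upstream of HEM2, had signals of 12.06 and 12.32 with CG-1521, against 10.61 and 10.43 in control, and rose by 1.67 (SE 0.14, adjusted p = 0.00757). ENT2, upstream of HMX1, rose by 0.50 (SE 0.11), beside 2.61 for HMX1. The other neighbours that passed were MPC54 next to HEM15 (0.70) and CAF20 next to HEM4 (-0.71). Without control replicate 2 none of these 5 passed, with adjusted p-values of 0.0549 for YGL039W, 0.0606 for COX20, 0.151 for ENT2, 0.131 for MPC54 and 0.107 for CAF20. Without control replicate 1 YGL039W passed, and COX20 (0.0896), ENT2 (0.213), MPC54 (0.0979) and CAF20 (0.134) did not. The call of ENT2 also ended with the replicate block (adjusted p = 0.0761), and that of MPC54 with the intensity trend (adjusted p = 0.0634).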
